A study of Mus musculus with 4 samples.

Results

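Blood vascular endothelial cells were picked out of single-cell RNA sequencing data of whole mouse ovaries by the RNA they carried. A barcode that held at least 500 genes, over 1000 UMIs (molecule barcodes, counted once per captured transcript) and less than 10% mitochondrial UMIs was taken as a member if at least 4 of 8 genes were detected in it, namely Flt1, Mecom, Cyyr1, Adgrl4, Cldn5, Ptprb, Esam and Pcdh17. It also had to lack joint detection of the lymphatic genes Mmrn1 and Prox1, to hold fewer than 10 UMIs of Inhba and Amh per 10000, and to show fewer than 2 of Lyz2, C1qa, Dcn, Lum and Cyp17a1. This left 1302 members among 47782 barcodes past the quality limits. Since the 8 genes chose the members, every comparison of member cells with other cells is a description here, and only differences between conditions were tested.

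The ovaries came from female mice at 8 weeks of age, littermates of 2 genotypes that both carried a floxed Fosl2 gene. Fosl2F/F mice (Fosl2flox/flox without Cre) gave 2 libraries, and Fosl2cKO mice (Cyp19a1-Cre; Fosl2flox/flox) gave the other 2. Cyp19a1, the aromatase gene, drives Cre in granulosa cells (GCs), so that the endothelium was not the target of the deletion. The replication described for these ovaries matches the number of libraries per genotype, although the labels do not tie each library to an animal.

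Endothelial cells line the blood vessels. The follicle wall and the corpus luteum of the adult ovary are among the few healthy tissues in which vessels grow and regress in every cycle, in response to VEGF released by GCs and luteal cells. VEGF acts through the receptors encoded by Kdr and Flt1, angiopoietins act through Tek, and Notch ligands such as Dll4 restrain sprouting and promote an arterial fate. Fosl2 encodes a member of the AP-1 family of transcription factors, which also holds the Fos and Jun proteins.

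Libraries differed in depth. The Fosl2F/F libraries gave 8780 and 24320 barcodes past the limits, with medians of 11380 and 3970 UMIs, and those labelled Fosl2cKO gave 7175 and 7507, with medians of 12714 and 12885. Between 12 and 49 barcode sequences were shared by any pair of libraries, and 0 of those marked a member in both. Fosl2F/F replicate 2 stood apart with the largest number of barcodes and the lowest depth. Likely doublets were the top-scored barcodes of each library at an assumed rate of 0.8% per 1000 barcodes, so that the shares of 7.03, 19.5, 5.74 and 6.01% follow from the barcode numbers and were not measured. Thresholds set by the scores themselves would have marked 331, 3116, 203 and 239 barcodes.

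Members numbered 132, 803, 173 and 194 in Fosl2F/F replicates 1 and 2 and in the libraries labelled Fosl2cKO replicates 1 and 2, the order used for all values that follow. They held medians of 6237.5, 4182, 8417 and 7696 UMIs and of 2720, 2215, 3334 and 3256.5 genes. In sum the members contributed 1156237, 5701127, 2150093 and 2468627 UMIs. Fosl2F/F replicate 2 thus provided most of the cells, and its cells were the shallowest.

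Of 1687 barcodes with at least 4 of the 8 genes, 106 were set aside for Mmrn1 and Prox1, 46 for Inhba and Amh, and 233 for markers of macrophages, fibroblasts or theca. All 8 genes were detected in 465 members (35.7%). Just inside the limit lay 116 members with exactly 4 of the genes, and just outside it lay 146 barcodes that met every other condition with exactly 3.

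The rule genes were present in every library, which follows from how the members were chosen, and some varied in level between libraries. Flt1, a VEGF receptor that also acts as a decoy, stood at 1072, 1211, 1072 and 1186 CPM (UMIs of the gene as a rate per total UMIs of the members), and at a mean of 1.61 CPM in other cells, defined as barcodes with fewer than 2 of the rule genes. Mecom, a zinc finger transcription factor, stood at 850, 896, 948 and 822 CPM. Cldn5, the claudin of endothelial tight junctions, gave 1387, 779, 1184 and 883 CPM, with the 2 first replicates above the 2 second ones. Of the others, Cyyr1 ranged from 502 to 641 CPM, Ptprb, a phosphatase that acts on Tek, from 601 to 705, Esam, an adhesion molecule, from 617 to 920, and Adgrl4, an adhesion G-protein coupled receptor, from 317 to 343. Pcdh17 gave 426, 394, 528 and 625 CPM, with both libraries labelled Fosl2cKO above both Fosl2F/F libraries. None of the 8 genes passed the test between the conditions given below. The low levels of the 8 genes in other cells follow from how those cells were defined.

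Among 3523 genes with at least 50 CPM in the members of every library, 289 stood over 4-fold and 91 over 16-fold above other cells in all libraries (with 1 CPM added). Mecom, Flt1, Adgrl4 and Cldn5 held ranks 1 to 4 by the lowest of the 4 ratios, and Esam held rank 18. The 20 genes that led beside them included receptors (Kdr, Tek, Tie1, Cd93), the Notch ligand Dll4, surface antigens (Ly6c1, Ly6a, Icam2), the transcription factors Sox7 and Zfp366, the matrix protein Mmrn2, and regulators of small GTPases and of cell shape (Prex2, Rapgef5, Rasip1, Afap1l1). Myct1, Ctla2a, Shank3, Tmem252 and Fam167b completed the list.

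**Figure D1:**
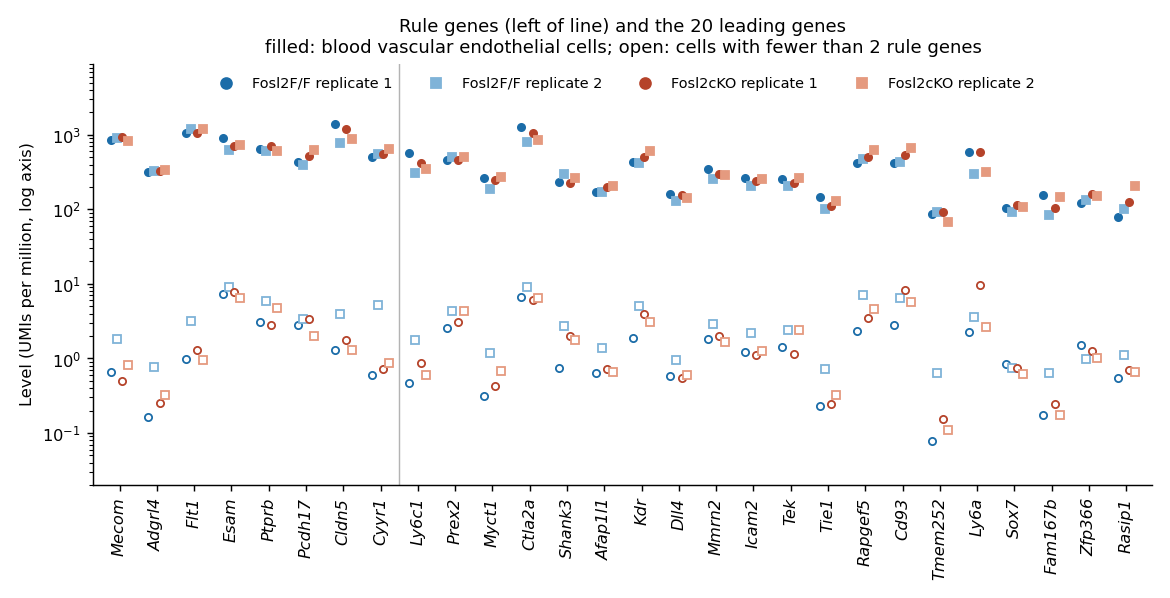
Level of the 8 rule genes and the 20 leading genes (CPM, log axis) in blood vascular endothelial cells (filled) and in cells with fewer than 2 rule genes (open), 1 point per library. For each gene the 4 filled points lie far above the 4 open ones, while the filled points of some genes, such as Rasip1, Ly6a and Cldn5, spread visibly between libraries.

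Kdr, the main signalling receptor of VEGF, reached 436, 424, 503 and 604 CPM in the members and a mean of 3.50 CPM in other cells. Tek, the angiopoietin receptor, gave 253, 206, 229 and 262 CPM, and its relative Tie1 gave 148, 102, 112 and 129. Both receptors were thus found in all libraries without a gap between the conditions. Ly6c1, an antigen of mouse endothelium, was higher in the first replicate of each genotype, at 574, 305, 426 and 344 CPM. Rasip1, which is needed for vessel lumens to form, stood at 78.7 and 102 CPM in Fosl2F/F and at 127 and 209 in the libraries labelled Fosl2cKO.

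Endothelial promoters often carry sites for ETS factors, whose core is GGAA, and AP-1 binds TGANTCA. The stretches of 250 bases before the RefSeq start sites (GRCm38.p6) were therefore searched on both strands for 2 forms of the ETS site, which differ in their first letter, AGGAAGT and then also CGGAAGT. The AP-1 site was searched as TGANTCA, with N for any base. Of the 20 leading genes, 12 had such a stretch, with 15 start sites among them. AGGAAGT was present at 3 of the 15 (20%), as against 7.69% of all 32851 stretches. CGGAAGT was present at 0 of 15 (4.92% of all), and TGANTCA at 2 of 15 (13.3%, 6.75% of all). Both of these belonged to Ctla2a, whose 2 stretches overlap, so that by gene TGANTCA was present at 1 of 12, as against 2113 of all 27025 genes. Of the rule genes, 6 had such a stretch, and Flt1 alone held AGGAAGT, in 1 of 7 stretches (14.3%). With so few stretches these shares are a description only. The stretches with an AGGAAGT match are shown with the match in capitals, and that of Kdr is shown as one without any of the searched letters. They lie at chr5:147726012-147726261 (Flt1, minus strand, match starting 53 bases before the start site), chr15:75048664-75048913 (Ly6c1, minus strand, 126 bases), chr12:117516276-117516525 (Rapgef5, plus strand, 88 and 57 bases), chr4:129578581-129578830 (Fam167b, minus strand, 109 bases, found on the opposite strand as ACTTCCT) and chr5:75978456-75978705 (Kdr, minus strand).
Flt1: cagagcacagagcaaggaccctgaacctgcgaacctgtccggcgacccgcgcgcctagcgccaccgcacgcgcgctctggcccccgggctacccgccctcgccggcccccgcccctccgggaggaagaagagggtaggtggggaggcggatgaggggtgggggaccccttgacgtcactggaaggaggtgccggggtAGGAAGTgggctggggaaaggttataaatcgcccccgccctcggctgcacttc
Ly6c1: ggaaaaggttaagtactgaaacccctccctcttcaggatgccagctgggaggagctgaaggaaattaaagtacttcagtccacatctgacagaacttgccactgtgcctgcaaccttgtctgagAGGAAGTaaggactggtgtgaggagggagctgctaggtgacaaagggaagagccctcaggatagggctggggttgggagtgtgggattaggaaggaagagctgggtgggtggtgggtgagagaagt
Rapgef5: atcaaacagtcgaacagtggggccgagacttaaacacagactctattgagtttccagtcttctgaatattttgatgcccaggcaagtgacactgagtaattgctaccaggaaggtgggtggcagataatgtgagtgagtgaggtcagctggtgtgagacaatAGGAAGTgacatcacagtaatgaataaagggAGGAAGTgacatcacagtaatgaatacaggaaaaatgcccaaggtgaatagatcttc
Fam167b: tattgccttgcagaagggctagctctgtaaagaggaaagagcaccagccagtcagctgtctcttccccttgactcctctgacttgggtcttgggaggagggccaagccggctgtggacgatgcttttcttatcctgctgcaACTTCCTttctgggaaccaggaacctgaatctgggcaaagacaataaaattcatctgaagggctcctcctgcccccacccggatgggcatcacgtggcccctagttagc
Kdr: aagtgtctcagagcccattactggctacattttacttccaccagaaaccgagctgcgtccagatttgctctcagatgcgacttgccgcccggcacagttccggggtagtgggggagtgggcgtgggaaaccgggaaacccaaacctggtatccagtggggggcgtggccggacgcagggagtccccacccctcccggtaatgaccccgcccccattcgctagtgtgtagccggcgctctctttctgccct
Rapgef5 alone held a pair of matches, and the single matches of Ly6c1 and Fam167b stood farther from the start site than that of Flt1.

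Genes that the rule did not use were read to check the label. For 25 pan-endothelial genes the summed level was 8364, 6747, 8441 and 8944 CPM in the members, and 140 to 209 CPM in other cells. Other cells had been chosen for their lack of rule genes, so that the low sum there follows in part from that choice. Pecam1, the platelet endothelial adhesion molecule, gave 652, 627, 725 and 701 CPM, and Cdh5, the cadherin of endothelial junctions, gave 794, 653, 818 and 856. Emcn, a sialomucin of veins and capillaries, gave 687, 604, 755 and 830 CPM. All 3 were high in every library and their levels varied less than 1.5-fold.

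Lymphatic endothelium was chosen by joint detection of Mmrn1 and Prox1, with 211 barcodes in all. A barcode also needed as many rule genes as a member, or both Pecam1 and Cdh5. These lymphatic cells shared part of the endothelial programme, which for rule genes such as Cldn5 follows in part from that choice. Cldn5 stood at a mean of 1310 CPM there and Kdr at 513 and so within the range of the members. In contrast Flt1 stood at 69.6 CPM and Mecom at 37.3, while Ccl21a, a chemokine of lymphatic vessels, stood at 5977 CPM. Members held 1.22 to 5.79 CPM of Ccl21a and 0 to 1.93 of Lyve1, a hyaluronan receptor of lymphatic vessels. Prox1, the regulator of lymphatic fate, was not at zero in the members, with 77.0, 18.6, 39.1 and 18.6 CPM.

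Among the ligands and receptors of vessel growth, Nrp1, a co-receptor of VEGF, gave 575, 513, 592 and 719 CPM, and Calcrl, the adrenomedullin receptor, gave 285, 308, 332 and 527 with its partner Ramp2 at 819, 531, 693 and 721. Vegfc, a growth factor of lymphatic vessels, stood at 217, 177, 184 and 212 CPM in the members but at a mean of 6.35 in the lymphatic cells and 9.02 in other cells. Vegfa was low, at 9.51 to 24.9 CPM. Members therefore carried the receptors for Vegfa with little of its own RNA. Of the Notch genes, Notch1 gave 179, 150, 181 and 168 CPM and Dll4 gave 160, 130, 155 and 143.

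Sparc, a matrix glycoprotein, reached 4720, 3754, 3918 and 4765 CPM, and the basement membrane collagens Col4a1 and Col4a2 ranged from 1077 to 1620 and from 668 to 1017 CPM. The pericyte gate held a mean of 1234 CPM of Col4a1, so that this collagen did not set the members apart. Abcb1a, a drug efflux pump of the blood-brain barrier, was present at 459, 359, 520 and 457 CPM, against 13.3 CPM in the lymphatic cells. Plvap, which forms the diaphragms of fenestrae, was at only 8.65, 7.89, 30.2 and 13.0 CPM over all members. The capillary carbonic anhydrase gene Car4 was at 0 to 0.465 CPM. Class I antigen genes were higher in the first replicate of each genotype, as H2-K1 stood at 1865, 1013, 2513 and 1132 CPM and B2m at 1439, 716, 1632 and 955.

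Markers of other cell types were measured in the members as well. The 8 theca and luteal genes summed to 1570, 2740, 805 and 830 CPM, the 10 granulosa genes to 658, 751, 414 and 478, and the 10 pericyte and smooth muscle genes to 982, 764, 726 and 793. Epithelial genes summed to 63.1, 120, 26.5 and 3.65 CPM, and macrophage genes to 19.0, 61.2, 74.0 and 23.9. The theca and luteal, granulosa and epithelial sums were all higher in both Fosl2F/F libraries than in either library labelled Fosl2cKO. Cyp17a1, an androgen synthesis gene that the rule limited, was at 231 CPM in Fosl2F/F replicate 1 and at 0 to 7.37 in the others.

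Clustering divided the members into 12 subclusters. Subcluster 1, with 242 cells, was arterial-like, since all 15 arterial genes stood over 2-fold above the other members (5 CPM added). Its leading genes were Stmn2, Mgp, Prdm16, Nebl and Gja5, of which Mgp is an inhibitor of calcification and Gja5 a connexin of arteries. Gja5 stood at 226 CPM against 8.11 in the other members, and Sox17, a transcription factor of arterial fate, at 336 against 67.7. Flt1 stood at 1438 CPM in these cells, between 769 in subcluster 3 and 1607 in subcluster 2, whereas Emcn was lower in them than in any other subcluster, at 241 CPM against 974 in subcluster 3 and 1122 in subcluster 4.

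Subcluster 12, with only 19 cells, was venous-like, with 10 of 12 venous genes over 2-fold. It was led by Fmo2, Selp, Aqp1, Tll1 and Plvap. Selp, the selectin that venules expose to leukocytes, stood at 3374 CPM against 34.1, and Ackr1, the chemokine receptor of venules, at 215 against 1.23. Plvap was concentrated in this subcluster, at 632 CPM against 8.69. With no cell of Fosl2F/F replicate 1, 11 of Fosl2F/F replicate 2, 7 of Fosl2cKO replicate 1 and 1 of Fosl2cKO replicate 2, the venous-like cells were few, 17 of their 18 Ackr1 UMIs came from Fosl2cKO replicate 1, and 26.3% of them were scored as likely doublets. Subcluster 6, with 89 cells, was led by Cntn3, Kirrel3, Tgfbi, Bche and Nlgn1 and held 4 of the 12 venous genes over 2-fold, among them Nr2f2, the regulator of venous fate, at 300 CPM, and it was left without a name.

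Subclusters 2 and 4, with 204 and 190 cells, differed little from the remaining members. Subcluster 2 was led by 4930542D17Rik, Gpihbp1, Cxcl2, Prnd and Kit, and its leading gene stood at 52.9 CPM against 14.4 in the other members. Subcluster 4 was led by Cd300lg, Exoc3l2, Fam167b, Rgcc and Itm2a, of which Cd300lg and Rgcc belong to the capillary list. Kdr was at 718 and 808 CPM in these subclusters, the highest of the 12, and Aplnr, the apelin receptor, stood at 179 and 213 CPM against 4.04 in the arterial-like cells. Under 3 capillary genes were among the 10 leading genes of either, and both were left without a name.

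Subcluster 7, with 97 cells, was cycling-like, with 20 of 22 cell cycle genes over 2-fold and Top2a, Kif11, Cenpf, Ube2c and Hmmr in the lead. Mki67, the antigen used to stain dividing cells, stood at 381 CPM against 40.6 in the other members. All 7 epithelial genes also stood over 2-fold in this subcluster, with a sum of 576 CPM. Subcluster 3, with 138 cells, was led by Birc5, Ddx39, Selenoh, Cenpa and Apoe, and 9 of 22 cell cycle genes stood over 2-fold in it. It also held the highest Prox1 level, 166 CPM, and 7 of 8 macrophage genes over 2-fold with a sum of 392 CPM, and was not named.

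The other 5 subclusters were led by genes of cell types other than endothelium. They were picked by a limit of at least 70% of the genes of another cell type's list over 2-fold, with a summed level of at least 1000 CPM. Subclusters 1, 3 and 7 met the first part with the erythroid, macrophage and epithelial lists but not the second. The members left without the 5 subclusters still held these cells. No gene of the granulosa list was among the 10 leading genes of subcluster 8. Rgs5, Pde3a and Notch3 led subcluster 5 (124 cells, all 10 pericyte and smooth muscle genes over 2-fold), Ano4, Cdh12 and Esr2 were among the leading genes of subcluster 8 (64 cells, all 10 granulosa genes), Pdgfra and Col1a1 led subcluster 9 (42 cells, all 8 stromal genes), Prlr, Lhcgr and Runx2 led subcluster 10 (78 cells, all 8 theca and luteal genes), and Ccl5, Dock2 and Gm2682 led subcluster 11 (15 cells, 5 of 7 lymphocyte genes). Together these held 323 members (24.8%), of which 73.4% were scored as likely doublets, against 5.01% of the other 979. They made up 15.2, 32.4, 10.4 and 12.9% of the members and 31.4, 48.0, 23.7 and 31.3% of their UMIs. The largest part of them thus came from Fosl2F/F replicate 2, and the main results between conditions are given also without these subclusters, a choice made after the data had been seen.

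**Figure D2:**
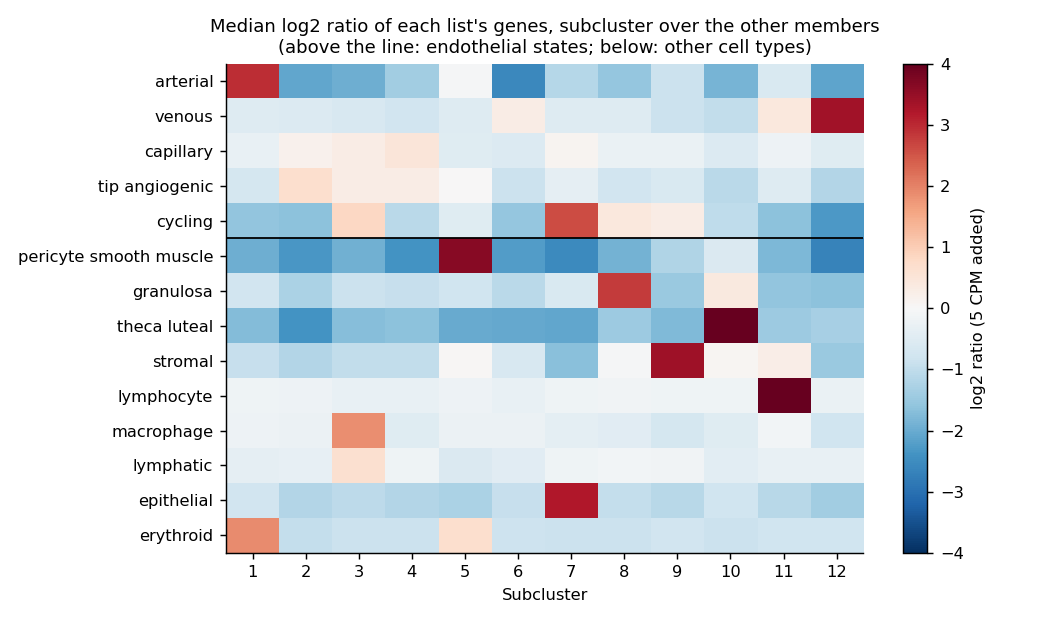
Median log2 ratio (5 CPM added) of the genes of each list between a subcluster and the other members, for lists of endothelial states (above the line) and of other cell types (below the line). Subclusters 1, 7 and 12 stand out for the arterial, cycling and venous lists, and subclusters 5, 8, 9, 10 and 11 for the pericyte, granulosa, stromal, theca and luteal, and lymphocyte lists, while subcluster 7 is also high for the epithelial list and subcluster 3 for the macrophage list.

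**Figure D3:**
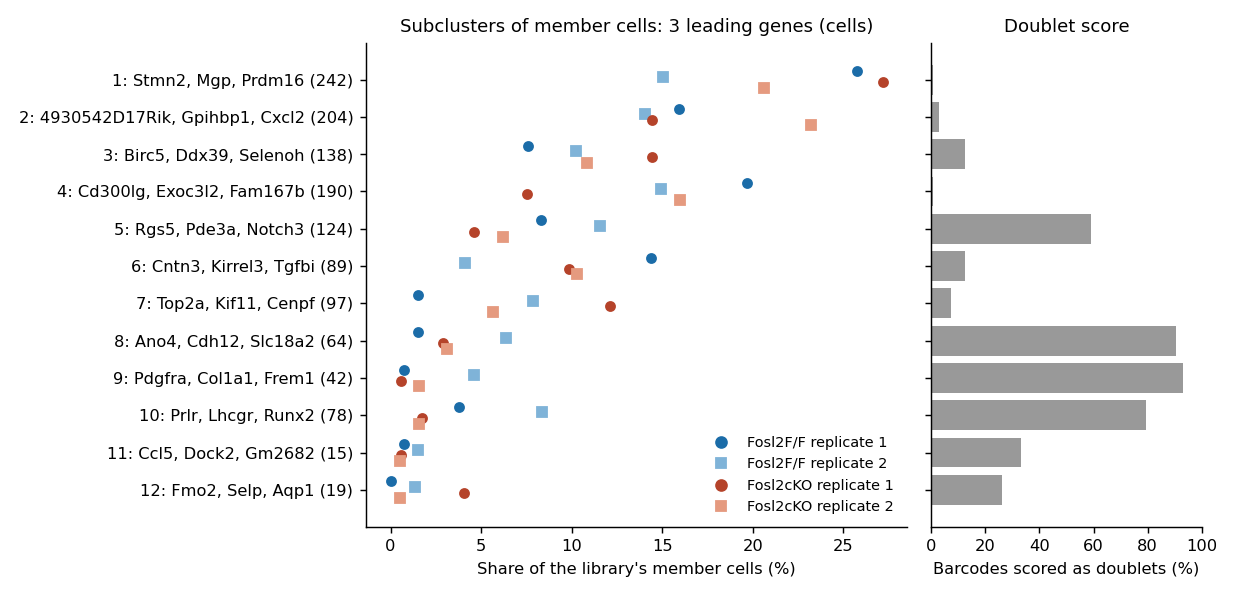
Share of each library's members in each of the 12 subclusters (left, in %, 1 point per library) and share of the barcodes of each subcluster that were scored as doublets (right, in %). Subclusters 3, 5, 10 and 11 are separated by genotype, at p = 0.333, the smallest that the exact permutation test over 2 against 2 libraries can give. For subcluster 11 this rests on 1, 12, 1 and 1 cells. Subclusters 5, 8, 9 and 10 hold the highest shares of doublet scores.

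The arterial-like subcluster took 25.8, 15.1, 27.2 and 20.6% of the members. The cycling-like subcluster took 1.52, 7.85, 12.1 and 5.67%, and subcluster 3 took 7.58, 10.2, 14.5 and 10.8%. Over the 12 subclusters, 0 differed between the conditions in an exact permutation test over the 4 libraries (lowest p = 0.333, the smallest that 2 against 2 libraries allow, adjusted p of at least 0.80). Shares of the arterial-like subcluster overlapped between the genotypes, while both shares of subcluster 3 labelled Fosl2cKO lay above both of Fosl2F/F by a difference of means of 3.74 points. Subclusters 5, 10 and 11, led by genes of other cell types, were separated in the other direction at the same p, with differences of -4.55, -4.43 and -0.58 points. Subcluster 10 held 5, 67, 3 and 3 cells and subcluster 11 held 1, 12, 1 and 1, so that their separations rest on few cells. Hsd3b1, a marker of subcluster 10, fell between the conditions, so that the size of this subcluster and the fall are not separate results.

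To ask whether the conditional deletion in GCs went along with a change in the size of the vascular compartment, the share of blood vascular endothelial cells was compared. It was 1.5% (Wilson 95% interval 1.27 to 1.78), 3.30% (3.08 to 3.53), 2.41% (2.08 to 2.79) and 2.58% (2.25 to 2.97), with intervals that cover counting error only. With every barcode thinned to 1000 UMIs before the rule, the shares were 0.80, 1.81, 1.59 and 1.68% and the log2 difference was 0.44 (exact permutation test, p = 1). Both libraries labelled Fosl2cKO lay between the Fosl2F/F libraries. The log2 difference of the shares was 0.16 (exact permutation test, p = 1). Without the 5 subclusters led by genes of other cell types, the shares were 1.28, 2.23, 2.16 and 2.25%, and 3 of the 4 libraries then lay within 0.1 points, with a log2 difference of 0.39 (exact permutation test, p = 0.667). Shares in dissociated tissue also depend on which cells survive the procedure.

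The share of members with UMIs of at least 2 of 22 cell cycle genes was read with each member reduced at random to 1000 UMIs. It came to 4.92, 18.5, 26.3 and 11.2%, and again both Fosl2F/F libraries did not lie on one side of those labelled Fosl2cKO. The difference of 7.03 points gave p = 0.667 in the exact permutation test. The shares were 4.24, 21.6, 24.8 and 9.02% without the 5 subclusters, with a smaller difference of 3.99 points and the same p. Without thinning, the shares were 50.8, 50.9, 64.2 and 52.1%, with both libraries labelled Fosl2cKO above both Fosl2F/F libraries. Members of the Fosl2F/F libraries also held fewer UMIs at the median, and the part of depth in this order was not tested. As background, the thinned reading gave 7.13% in the arterial-like subcluster and 89.2% in the cycling-like one. Top2a, a topoisomerase of dividing cells, had the same order over the libraries, with 26.4, 102, 187 and 83.7 normalised CPM, where libraries were scaled by TMM.

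**Figure D4:**
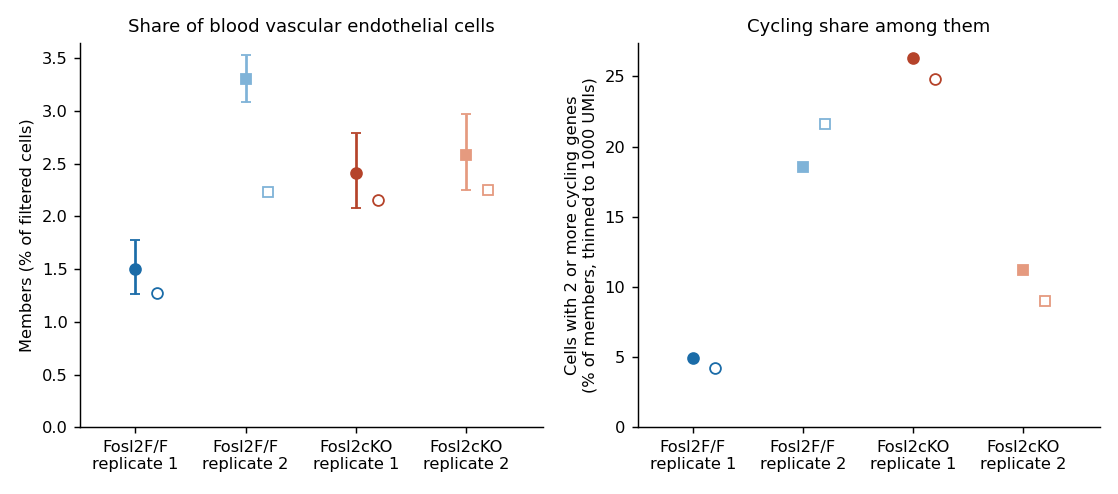
Blood vascular endothelial cells in % of filtered cells (left, with Wilson 95% intervals) and members with at least 2 cell cycle genes after thinning in % of members (right), per library. Filled points show all members and open points those outside the 5 subclusters led by genes of other cell types. In both panels the libraries of the genotypes overlap.

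Fosl2 UMIs in the members came to 165, 305, 200 and 219 CPM, close to the 172, 239, 237 and 176 CPM of other cells, and Inha, an inhibin gene of GCs, was in the members at 361, 347, 211 and 213 CPM. Which part of the Fosl2 UMIs was made by the endothelium and which was carried over was not tested. In the granulosa gate, where Cre should act, it stood at 168, 198, 203 and 156 CPM, which does not separate the genotypes. The study places LoxP sites around coding exons of Fosl2, while the kit reads the 3′ end of the RNA. Whether a transcript that has lost these exons would still be counted was not tested, and this gene could therefore not check the labels. Its difference in the members was a log2 value of -0.18 ± 0.28 (SE, edgeR adjusted p = 1).

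Of 11 AP-1 genes tested, 0 were called between the conditions, when 0.122% of all 11467 genes tested were called higher and 0.0785% lower. Of the 11, 6 were lower in both libraries labelled Fosl2cKO than in both Fosl2F/F libraries and 2 were higher. Of all genes tested, 15.4% were lower and 15.1% higher in this way. Among the 6, Batf was at only 5.19, 5.79, 1.40 and 4.86 CPM and Jdp2 at 14.7, 15.1, 9.77 and 12.2. Fosb was separated by little, with 529, 714, 522 and 466 CPM. The median log2 difference of the 11 genes was -0.33, as against -0.00135 for all genes, and -0.34 without the 5 subclusters. Junb, a growth-responsive partner of Fos, gave 1795, 1304, 1104 and 978 normalised CPM, a log2 difference of -0.57 ± 0.23 with an adjusted p of 0.767. Fos gave 1575, 1679, 1288 and 1002 (log2 difference -0.51 ± 0.22, edgeR adjusted p = 0.839). Jund was at 194, 215 and 221 in 3 libraries and at 1038 in Fosl2cKO replicate 2, and other cells of that library showed the same step, with 221, 242, 342 and 1307 CPM. Klf2, a transcription factor induced by blood flow, likewise stood at 219, 103, 196 and 646 normalised CPM.

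Between the conditions, edgeR on UMIs summed per library called 14 genes higher (0.122% of 11467 tested) and 9 lower (0.0785%) in the libraries labelled Fosl2cKO, where a call needed a Benjamini-Hochberg adjusted p below 0.1 and an absolute log2 difference above 0.25. At an unadjusted p under 0.05 there were 613 genes. No member of the lists of pan-endothelial, arterial, venous and capillary genes, or of VEGF, angiopoietin, Notch and BMP signalling, was among the 23. Without the 5 subclusters 34 of 10501 genes were called (0.324%), and 16 of the 23 were among them, 13 of the higher and 3 of the lower ones. Differences in genes of other cell types were also measured without these subclusters. The median log2 difference was -0.53 over 9 granulosa genes and -1.09 over the 7 still tested without the subclusters, -0.33 over 10 and -1.48 over 5 pericyte genes, -2.86 and -3.31 over 5 epithelial genes each, and -1.95 over 8 and -1.09 over 6 theca and luteal genes, so that most of these medians are over different genes. The other 18 genes were called in the smaller set alone, and they were named after their values were seen. The 12 lower ones in the libraries labelled Fosl2cKO included Igfbp5, an insulin-like growth factor binding protein, with a log2 difference of -2.20 (edgeR adjusted p = 0.00210). Among them were also the granulosa gene Inha (-1.55), Pde3a (-2.66), a leading gene of the pericyte subcluster, and Myl9 (-2.91), a myosin light chain of smooth muscle. The uroplakins Upk1b (-4.75) and Upk3b (-3.37) were low, at 6.46, 11.9, 0.608 and 0 and at 16.8, 16.0, 3.04 and 0 normalised CPM. The rest of the 12, on none of the lists, were F3 (-3.44), Sfrp4 (-3.05), Nap1l5 (-2.16), Frmd5 (-1.68), Ephx2 (-1.60) and Cirbp (-1.16). The 6 higher ones were C1qbp, Odc1, Dcun1d5, Socs1 and Tmem160, with log2 differences of 1.19 to 2.58, and Plb1, which had no UMI in the Fosl2F/F libraries there and 10.9 and 15 CPM in those labelled Fosl2cKO.

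The genes that rose included regulators of transcription, a translation factor and mitochondrial proteins. Cebpd, a C/EBP transcription factor of stress responses (ENSMUSG00000071637, chr16:15887286-15891031 on GRCm38), stood at 31.7 and 33.8 normalised CPM in Fosl2F/F and at 120 and 135 in the libraries labelled Fosl2cKO. Its log2 difference was 1.95 ± 0.26 (edgeR adjusted p = 0.00824), and without the 5 subclusters it was 1.90. The cell with most Cebpd UMIs held 5 of 36, 5 of 193, 16 of 256 and 18 of 331, so that no single cell carried the rise. Ywhah, a 14-3-3 adaptor protein, rose from 78.4 and 79.0 to 230 and 317 (log2 difference 1.80 ± 0.26, edgeR adjusted p = 0.00824).

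Scand1, a SCAN domain protein, rose from 16.7 and 27.9 to 89.5 and 123 normalised CPM, with the largest log2 difference of those above 20 CPM, 2.17 ± 0.30 (edgeR adjusted p = 0.00824). Eif3f, a subunit of translation initiation factor 3, rose from 93.4 and 140 to 329 and 447 (1.71 ± 0.27, edgeR adjusted p = 0.0160). Marc2, an enzyme of mitochondria, rose from 179 and 192 to 547 and 484 (1.47 ± 0.23, edgeR adjusted p = 0.0160). In each of these genes both values of one genotype lay above both of the other, which was a condition for naming Scand1 and Eif3f among the largest rises. Glrx5, which serves mitochondrial iron-sulphur clusters, Anp32b, a histone chaperone, Sap30, a subunit of a histone deacetylase complex, and Rab5if, 0610012G03Rik, Grrp1, Bloc1s4 and Rfxap rose by log2 values of 1.48 to 2.39. Of these, Bloc1s4 and Rfxap lost their call in 6 and 5 of 17 alternative ways of processing, and the others in at most 2. Grrp1, which is on none of the lists, was found mostly in the members, as other cells held only 0.0279 to 0.473 CPM of it and the members 20.2 to 85.4 normalised CPM.

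In other cells the same contrast gave log2 differences above 1 for all 14 genes, such as 2.39 for Cebpd, 2.21 for Scand1 and 1.51 for Eif3f, and the interaction of condition with cell class was called for Gzma alone among them. Other cells come from the same 4 libraries, and there edgeR called 2 of 20321 genes (0.00984%), with an adjusted p of 0.350 for Cebpd. The median GC content of the rising genes was 51.7%, that of the falling ones 55.4% and that of all genes 49.2%, and 22 of the 23 calls were also made after the GC trend of each library had been removed.

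The 14th gene was Gzma, a protease of cytotoxic lymphocytes (ENSMUSG00000023132), with 0, 1.75, 31.4 and 19.2 normalised CPM (log2 difference 4.15 ± 0.57, edgeR adjusted p = 0.00824). Its UMIs numbered 0, 10, 67 and 47, and 66 of the 67 and 42 of the 47 lay in 1 cell each, both in the lymphocyte subcluster 11. Gzma was too low to be tested without the 5 subclusters.

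**Figure D5:**
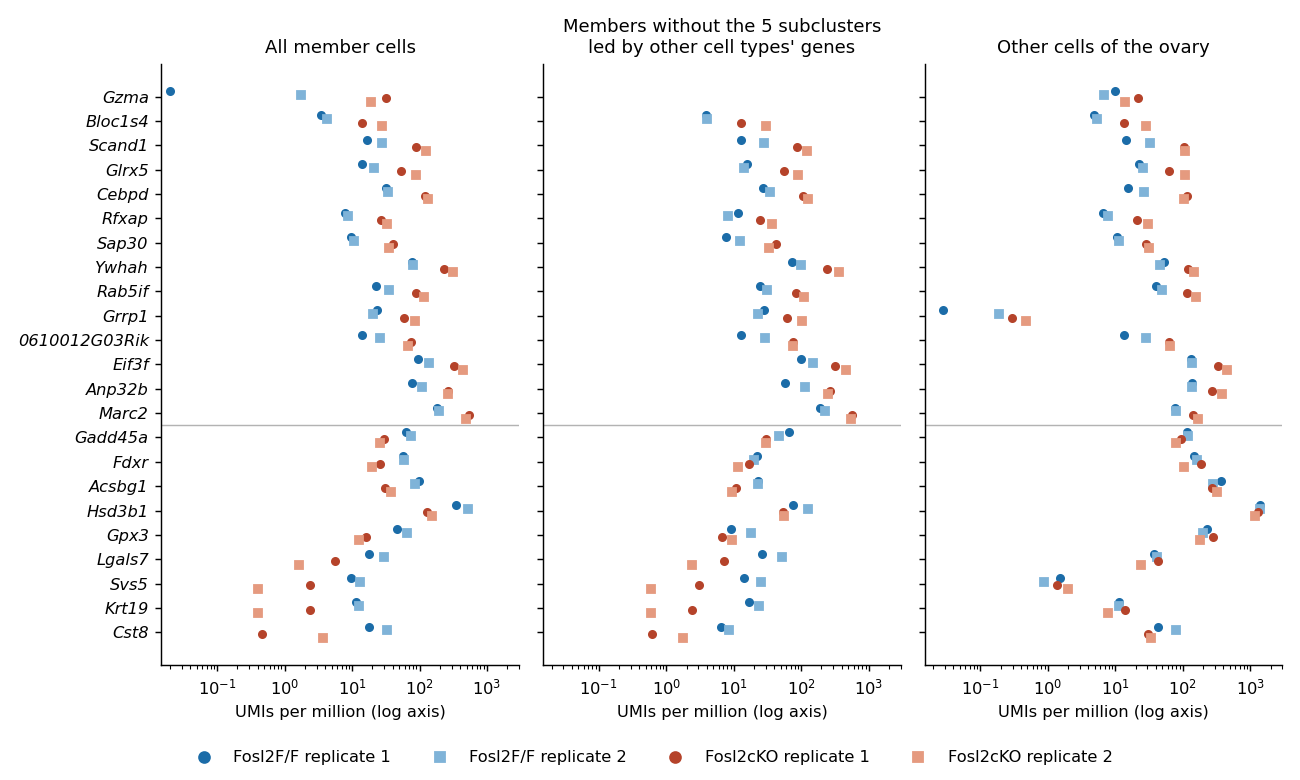
Level (CPM, log axis) of the 23 genes called between the conditions, 1 point per library, in all members (left), in members outside the 5 subclusters led by genes of other cell types (middle) and in other cells (right). The grey line separates the 14 higher from the 9 lower genes, and a value of 0 is drawn near the left edge. The higher genes except Gzma are separated by genotype in all 3 panels, while of the lower genes all are separated in the left panel and Hsd3b1, Gadd45a and Cst8 alone in the right panel.

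The genes that fell included some of steroid synthesis and of epithelia. Hsd3b1, an enzyme of progesterone synthesis (ENSMUSG00000027871, chr3:98852194-98859794), stood at 344 and 519 normalised CPM in Fosl2F/F and at 131 and 152 in the libraries labelled Fosl2cKO (log2 difference -1.62 ± 0.26, edgeR adjusted p = 0.0161). It was at 2515 CPM in subcluster 10 and at 349 CPM in subcluster 8, and at 73.7 to 107 CPM in the others. Without the 5 subclusters its log2 difference was -0.93 with an adjusted p of 0.332. Gpx3, a secreted glutathione peroxidase, fell from 45.8 and 65.0 to 15.9 and 12.7 (-1.98 ± 0.31, edgeR adjusted p = 0.0160), and Acsbg1 and Fdxr, an acyl-CoA synthetase and the reductase that feeds steroid hydroxylases, fell by 1.43 and 1.34 on the log2 scale. Of the 52 Gpx3 UMIs in Fosl2F/F replicate 1, 34 lay in 1 cell of subcluster 10, as did 163 of the 391 Hsd3b1 UMIs of that library. None of the 4 was called without the 5 subclusters, where the log2 difference was -0.84 for Gpx3, -0.53 for Fdxr and -1.17 for Acsbg1, the last with an adjusted p of 0.574 and a size close to that in all members, and the theca and luteal sum moved with them, as given above. The part of that RNA in these falls was not tested.

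Gadd45a, a stress-induced growth arrest gene, fell from 62.5 and 74.0 to 30.0 and 26.1 normalised CPM (log2 difference -1.29 ± 0.27, edgeR adjusted p = 0.0940), and was at -0.88 with an adjusted p of 0.563 without the 5 subclusters. Cst8, a cystatin, fell from 17.6 and 33.0 to 0.468 and 3.68. Krt19, a keratin of the ovarian surface, stood at 11.5, 12.8, 2.34 and 0.409 and Lgals7, a galectin of epithelia, at 17.6, 29.3, 5.62 and 1.63, and both fell with edgeR adjusted p values of 0.0711 and 0.0490. With at least 3 of the 8 rule genes required of a member, their log2 differences were reversed, at 0.54 and 0.29. Svs5, known as a secretory protein of the seminal vesicle, was at 9.69, 13.1, 2.34 and 0.409 (edgeR adjusted p = 0.0872). Without the 5 subclusters Krt19, Lgals7 and Svs5 were called (log2 differences -3.72, -3.06 and -3.48) and Cst8 was not (-2.62, edgeR adjusted p = 0.327). Krt19 and Svs5 rested on few cells. Of 13 and 73 Krt19 UMIs in the Fosl2F/F libraries, 12 and 47 lay in 1 cell each of the cycling-like subcluster, where the epithelial sum was 576 CPM, and of 11 and 75 Svs5 UMIs 9 and 51 lay in 1 cell each of subcluster 6. Of 20 and 167 Lgals7 UMIs, 16 and 80 lay in 1 cell each of the cycling-like subcluster, and the 167 were spread over 39 cells.

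A further 5 genes are given as values only, since they did not pass the test. The largest of them by log2 difference was Sfrp4, a secreted Wnt antagonist, with 37.9, 185, 4.22 and 4.09 normalised CPM (edgeR adjusted p = 0.796), followed by Cyp11a1, which starts steroid synthesis, with 321, 802, 145 and 123 (edgeR adjusted p = 0.415). Star, the carrier of cholesterol into mitochondria, was at 47.6, 117, 30.0 and 18.8, Tnc, a matrix protein, at 23.8, 44.3, 5.62 and 14.7, and Nupr1, a stress factor, at 32.6, 49.1, 17.8 and 7.76. The separation of all 5 by genotype follows from how they were picked. Of them Sfrp4 was called without the 5 subclusters (log2 difference -3.05, edgeR adjusted p = 0.00210).

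Lists of vascular genes were then read as counts, for which 15.1% of all genes tested lay higher and 15.4% lower in both libraries labelled Fosl2cKO. Of 25 pan-endothelial genes 12 lay higher and 0 lower, with a median log2 difference of 0.21, which was 0.06 without the 5 subclusters. Sox17 led them with 71.4, 46.4, 116 and 238 normalised CPM (log2 difference 1.63 ± 0.38, edgeR adjusted p = 0.303), Rasip1 gave 80.2, 102, 128 and 211 (0.88 ± 0.28, edgeR adjusted p = 0.466), and Lmo2, a cofactor of blood and vessel formation, gave 143, 85.3, 159 and 186 (0.62 ± 0.27, edgeR adjusted p = 0.839). None of the 25 passed the test. In the arterial-like subcluster alone, Sox17 was at 208, 150, 427 and 728 CPM, with the highest value in Fosl2cKO replicate 2, the library that also stood apart in Klf2 and Jund.

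The lists share genes, so that their counts are not separate results. Erg, Fli1, Sox17, Sox18, Gata2, Tal1 and Lmo2 are on both the pan-endothelial list and that of transcription factors. Kdr, Tek, Tie1, Calcrl and Ramp2 are on both the pan-endothelial list and that of VEGF signalling. Of 19 transcription factors of the ETS, SOX, GATA and related families, 7 lay higher and 0 lower. Their median log2 difference was 0.21 in all members and 0.10 without the 5 subclusters, the order of the medians that follow. Of 15 arterial genes, 1 lay higher and 1 lower (medians -0.13 and -0.19), of 11 venous genes 3 and 1 (0.11 and 0.06), and of 8 capillary genes 4 and 1 (0.32 and 0.26). Of 19 genes of VEGF, angiopoietin and apelin signalling 6 lay higher and 2 lower (0.10 and 0.08), of 14 Notch genes 4 and 1 (0.17 and 0.08), and of 17 genes of BMP and TGF-beta signalling 2 and 2 (-0.02 and -0.09). No gene of these lists passed the test. Smad7, an inhibitor of TGF-beta signals, had 60.8, 72.9, 107 and 157 normalised CPM (log2 difference 0.97 ± 0.27, edgeR adjusted p = 0.311), and Nrarp, a target of Notch, had 11.5, 11.7, 20.6 and 32.7 (1.20 ± 0.35, edgeR adjusted p = 0.395).

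Of 20 immediate early and heat shock genes 3 lay higher and 12 lower, with a median log2 difference of -0.34 and of -0.27 without the 5 subclusters. Fos, Fosb, Jun, Junb, Jund and Atf3 are also AP-1 genes, so that this count and that of the AP-1 genes are not separate results. The heat shock gene Hspa1a gave 417, 209, 88.1 and 153 normalised CPM (log2 difference -1.36 ± 0.41, edgeR adjusted p = 0.599). None of the 20 passed the test. These genes respond within minutes to the handling of tissue, and their part in the other results was not tested. Of 22 cell cycle genes 4 lay higher and 0 lower (median 0.90, and 0.53 without the 5 subclusters), and of 20 basement membrane genes 5 and 0 (0.22 and 0.15), again with none past the test.

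To ask where the endothelium departed from the rest of the ovary, the difference between the conditions in the members was set against that in other cells. This interaction was called for 189 of 19872 genes (0.951%), 22 of them with a positive sign and 167 with a negative one. This split rested on single libraries, being 102 and 132 without Fosl2F/F replicate 2 and 61 and 115 without Fosl2cKO replicate 2. Mecom and Pcdh17 were among them, but as rule genes they were held low in other cells by definition and are not read further. Other positive genes also stood near zero in cells chosen for lacking rule genes, such as Erg (1.07 to 2.06 CPM), Rbp7 (0.119 to 0.670) and Upp1 (0.776 to 2.61). The positive count is therefore not read as a trait of the endothelium. Of the 9 falling genes 8 were among the 189, and 8 of the 9 had a log2 difference within 0.6 of zero in other cells. Against the pericyte and smooth muscle gate in place of other cells 3 genes were called, and without the 5 subclusters 106 were.

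Apln, the ligand of the apelin receptor and a gene of sprouting endothelium, had a positive interaction of 2.31 (edgeR adjusted p = 9.28e-05) and was at 7.05, 14.7, 79.6 and 29.8 normalised CPM in the members. By itself this difference did not pass (log2 difference 2.16 ± 0.58, edgeR adjusted p = 0.576), and the interaction was set against only 1.01 to 6.03 CPM of Apln in other cells. Apln was at 162 CPM in subcluster 3, at 42.5 in subcluster 2 and at 0 in the arterial-like and venous-like subclusters. Of the 170 Apln UMIs in Fosl2cKO replicate 1, 75 lay in 1 cell of subcluster 3. Plb1, a phospholipase named here after its values were seen, was at 0, 0.350, 28.1 and 100 normalised CPM (edgeR adjusted p = 0.356), and of 245 UMIs in Fosl2cKO replicate 2, 199 lay in 1 cell of subcluster 10. Without the 5 subclusters it was called, on 0, 0, 18 and 25 UMIs.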

How the data were processed

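Whole ovaries of 4 libraries were dissociated and sequenced with a 3′ single-cell kit. The authors deposited whole-number UMI counts per gene and barcode, made with Cell Ranger (7.1.0 in the file headers) on GRCm38 (mm10), and the labels also name Seurat 4.1.0. The study's methods name an earlier Cell Ranger version than the headers and describe removal of ambient RNA with CellBender. Whether the deposited counts were made before or after that step was not settled here. 32285 genes were read, and 0 columns were left unmapped.

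The members and the gene lists were chosen with earlier results of these data known. Other cells were barcodes past the limits with fewer than 2 rule genes, slightly narrower than all other filtered cells. Doublets were scored and kept, and removed in an alternative. Members were clustered with scanpy 1.11.5 (2000 variable genes, 20 components, resolution 0.6). UMIs were summed per library, since cells are not replicates, and tested with edgeR 4.0.16 (quasi-likelihood, TMM, R 4.3.3) without a replicate block. Where an adjusted p is printed it is from edgeR over all genes tested. Shares were tested by two-sided exact permutation over 4 libraries (scipy 1.17.1, smallest p 0.333). DESeq2 1.42.0 was an alternative. On simulated counts of this comparison, 33.5% of 200 genes changed 2-fold (11246 genes) and 100.0% of those changed 4-fold (11263 genes) were recovered, with 10 and 25 false calls. Changed genes had a mean of at least 20 CPM, and the simulated spread followed only the trend of dispersion with level. In the data Cyp11a1 (log2 difference -2.08) and Sfrp4 (-4.79) were not called, so that 4-fold changes could be missed. Deviations of libraries of equal number from their group means had a correlation of r = 0.023 over 7314 genes. With 2 libraries per genotype this cannot show whether the numbers pair the libraries, and the labels do not say so. The replication described in the study matches the libraries, and the labels do not tie a library to an animal. Doublets were the top-scored 0.8% of barcodes per 1000 in a library. Intervals cover counting error only.

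Named were the rule genes, the 20 leading genes, the largest called changes with a mean of at least 20 CPM, called members of the lists or otherwise 2 to 4 of their highest, the AP-1 genes and 5 leading genes per subcluster. Sox17, Lmo2, Smad7, Nrarp, Hspa1a, Klf2, Apln and Plb1 were named after their values were seen, as was the choice to leave out 5 subclusters and to remove the GC trend.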

Additional observations from a re-analysis of the deposited data

Results flagged for a closer look

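The difference between the conditions in blood vascular endothelial cells was set against that in other cells by an edgeR interaction term, which was past the threshold for 189 genes. The values that follow are the log2 difference in the members less that in other cells, for the called genes, the genes given as values only, the leading genes of the members and of the subclusters, and Apln. It was positive for Gzma (2.92), Gpihbp1 (2.68), Apln (2.31), Ccl5 (1.60), Rasip1 (1.22) and Ndufa4l2 (1.06). It was negative for the steroid synthesis genes Hsd3b1 (-1.38), Cyp11a1 (-1.50), Star (-1.74) and Fdxr (-1.18), for Prlr (-0.98), Lhcgr (-2.03) and Runx2 (-1.79), which led subcluster 10, for Pdgfra (-1.21), Col1a1 (-1.08) and Cxcl14 (-1.94), which led subcluster 9, and for Dgkb (-1.17) and Apoe (-0.86). Acsbg1 (-1.33), Gpx3 (-2.05), Cst8 (-2.63), Tnc (-1.28), the epithelial genes Krt19 (-3.16) and Lgals7 (-2.55), and Svs5 (-3.76) were negative as well. Gpihbp1 and Rasip1 were near zero in other cells, at 0.0177 to 0.296 and 0.574 to 1.11 CPM, and other cells were chosen for their lack of rule genes, so that the values of these 2 genes, here and without the subclusters, are not read further.

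Without the 5 subclusters led by genes of other cell types, the interaction was past the threshold for Apln (2.39), Gpihbp1 (2.58), Rasip1 (1.18), Star (-1.43), Krt19 (-3.71), Lgals7 (-2.81), Svs5 (-4.06), Col1a1 (-1.36) and Dgkb (-3.24). It was not for the others named here, among them Hsd3b1 (-0.67), Cyp11a1 (-0.90), Fdxr (-0.37), Gpx3 (-0.95), Acsbg1 (-1.09) and Lhcgr (-0.44), and it turned negative for Gzma (-1.07) and Ccl5 (-0.55). Gzma, Krt19 and Svs5 rested mainly on single barcodes, as given above, and the part of RNA from other cell types in the negative values was not tested.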

How the results depend on the processing

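The number of genes called between the conditions was 23, and it was 46 with at least 5 of the 8 rule genes, 13 with at least 3, 42 with scored doublets removed, 39 by DESeq2 and 233 with no filter on low counts. Leaving out 1 library gave 47 (Fosl2F/F replicate 2) to 249 (Fosl2cKO replicate 2), with 117 without Fosl2F/F replicate 1 and 178 without Fosl2cKO replicate 1, where the lone library was assumed to vary like the others. The fit with the replicate number as a block called 14 and lost 12 of the 23, and whether the numbers pair the libraries is not known. The 189 interactions became 13 with at least 3 rule genes, 108 without doublets, 3 against the pericyte and smooth muscle gate, 106 without the 5 subclusters (an alternative chosen after seeing the data), and 72 (without Fosl2cKO replicate 1) to 278 (without Fosl2F/F replicate 1) with 1 library left out. The log2 difference in share, 0.16, was 0.44 with barcodes thinned to 1000 UMIs before the rule, -0.0074 without any marker of another cell type, and ranged from -0.40 (without Fosl2F/F replicate 1) to 0.73 (without Fosl2F/F replicate 2). The cycling difference of 7.03 points ranged from -0.51 (without Fosl2cKO replicate 1) to 14.6 (without Fosl2cKO replicate 2). These differences were 0.39 and 3.99 without the 5 subclusters. A larger number of calls did not mean that all of the 23 were kept. DESeq2 lost 6 of them, and some were lost without Fosl2F/F replicate 2 or without Fosl2cKO replicate 2. With at least 3 rule genes 9 of the 23 lost their call with the sign kept, and the log2 differences of Krt19 and Lgals7 turned to 0.54 and 0.29. The cause of these changes was not tested. Anp32b, Cebpd, Eif3f, Glrx5, Marc2, Rab5if, Scand1 and Ywhah were called under all 17 alternatives. With 132 members in Fosl2F/F replicate 1, low genes were measured on few UMIs.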
